A study of Mus musculus with 23 samples.

Results

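The transcripts of 37 lysosome genes were followed in medulloblastoma allografts treated with a Smoothened antagonist. The genes were a named list of lysosomal enzymes, membrane proteins, an acidifying pump and a regulator, and a gene's probe sets were those whose annotated symbol was on the list. This list and the marker lists below were chosen with earlier results of these data known, so counts over them are not an independent test. All 37 were found, on 79 probe sets, among 18193 named genes and 45037 probe sets of the array. Of these 79 probe sets, 76 passed the filter on low signals, and each of the 37 genes had at least 1 that passed. Each gene was read from the brightest of its probe sets, by mean log2 signal.

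The tumours arose in Ptch+/-HIC+/- mice, which carry 1 working copy of Ptch1, the Hedgehog receptor that restrains Smoothened. Dissociated tumour cells were implanted under the skin of the flank of nu/nu mice, and dosing began about 10 days later. Nude mice lack T cells but keep macrophages. The drug, NVP-LDE225, blocks Smoothened and so shuts off Hedgehog signalling. There were 3 arrays of resistant tumours on 160 mg/kg and 3 of resistant tumours on 40 mg/kg, whose time of collection after a dose is not stated. Sensitive tumours treated at 40 mg/kg were collected after 4, 8, 24 and 48 h, with 3 arrays at each time. The controls were 3 vehicle tumours with no stated time and 2 vehicle tumours of 4 h. All 8 groups therefore share the tumour genotype and the nude host. No vehicle was labelled for 8, 24 or 48 h, so the 8 h tumours were set against the 4 h vehicle and the later ones against the vehicle with no stated time. For 6 of the 12 short-term treated arrays (24 h replicate 1, 4 h replicates 2 and 3, and all 8 h replicates) 1 label says resistant, and the description and tumour status, which say otherwise, were followed. Whether replicates came from separate animals is not stated, so the p-values reflect only the spread among these arrays, which may be technical.

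Lysosomes are acidic compartments in which proteases, glycosidases and lipid hydrolases break down material taken up by the cell or delivered by autophagy. A proton pump, the V-ATPase, acidifies them, and most of the enzymes are carried there by receptors for mannose 6-phosphate. The transcription factor TFEB and its relatives bind a sequence in the promoters of many lysosome genes. Macrophages and microglia are rich in lysosomes, and several genes on the list, such as Cd68 and Gpnmb, are far more active in them than in neurons.

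The start-site windows of 6 of the genes are shown. Of these, 4 are of genes with the TFEB-type core and 2 of the genes with the largest rises at 48 h. The part of the core in the changes was not tested. Each window runs from 250 bases before to 50 bases after the start site, from RefSeq on build GRCm38.p6, written 5′ to 3′ on the gene's strand. Capitals mark the palindromic core CACGTG and, where it is complete, the 8 bases GTCACGTG (read on either strand), which hold that core. Lamp1 lies at chr8:13158911-13159210 on the plus strand, Ctsd at chr7:142387778-142388077 on the minus strand, Ctsa at chr2:164833523-164833822 on the plus strand and Mcoln1 at chr8:3500269-3500568 on the plus strand. Cd68 lies at chr11:69666121-69666420 on the minus strand and Gpnmb at chr6:49036268-49036567 on the plus strand.
Lamp1: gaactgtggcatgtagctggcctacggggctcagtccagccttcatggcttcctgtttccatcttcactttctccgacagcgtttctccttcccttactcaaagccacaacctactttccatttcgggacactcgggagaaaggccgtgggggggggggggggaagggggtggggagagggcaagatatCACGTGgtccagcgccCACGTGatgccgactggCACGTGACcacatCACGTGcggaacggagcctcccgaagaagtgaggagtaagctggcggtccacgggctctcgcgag
Ctsd: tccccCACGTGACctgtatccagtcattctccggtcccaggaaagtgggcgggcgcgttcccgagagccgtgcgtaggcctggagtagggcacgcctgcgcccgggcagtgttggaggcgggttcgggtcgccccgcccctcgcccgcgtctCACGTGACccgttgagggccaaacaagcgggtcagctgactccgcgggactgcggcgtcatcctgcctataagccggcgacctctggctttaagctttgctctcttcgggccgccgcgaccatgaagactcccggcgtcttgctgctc
Ctsa: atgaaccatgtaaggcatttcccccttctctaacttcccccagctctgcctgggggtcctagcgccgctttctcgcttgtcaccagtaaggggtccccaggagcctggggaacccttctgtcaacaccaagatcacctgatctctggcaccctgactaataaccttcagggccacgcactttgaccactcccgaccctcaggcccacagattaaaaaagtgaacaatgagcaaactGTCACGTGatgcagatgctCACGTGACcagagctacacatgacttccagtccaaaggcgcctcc
Mcoln1: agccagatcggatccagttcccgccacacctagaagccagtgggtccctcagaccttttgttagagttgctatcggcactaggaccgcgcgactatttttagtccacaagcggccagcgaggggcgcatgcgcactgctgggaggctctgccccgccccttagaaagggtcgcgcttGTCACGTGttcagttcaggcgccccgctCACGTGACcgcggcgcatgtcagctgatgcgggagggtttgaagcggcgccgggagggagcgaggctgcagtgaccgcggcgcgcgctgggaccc
Cd68: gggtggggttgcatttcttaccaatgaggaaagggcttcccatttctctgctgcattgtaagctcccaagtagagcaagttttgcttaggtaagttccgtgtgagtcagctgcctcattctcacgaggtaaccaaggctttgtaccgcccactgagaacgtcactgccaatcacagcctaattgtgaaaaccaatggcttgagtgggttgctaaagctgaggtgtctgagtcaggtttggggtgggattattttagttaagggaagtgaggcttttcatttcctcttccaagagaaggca
Gpnmb: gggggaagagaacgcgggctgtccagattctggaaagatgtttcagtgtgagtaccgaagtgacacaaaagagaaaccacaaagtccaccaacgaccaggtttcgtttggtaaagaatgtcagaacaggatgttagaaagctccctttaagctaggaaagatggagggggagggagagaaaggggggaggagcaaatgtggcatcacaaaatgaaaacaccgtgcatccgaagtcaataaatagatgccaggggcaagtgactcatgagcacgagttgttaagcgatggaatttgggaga
The Lamp1 window held 4 cores between positions -61 and -15 from the start site, and the Ctsd, Ctsa and Mcoln1 windows held 2 each. RefSeq gives Ctsa and Lgmn a second window each, at the outer annotated start of the gene, and those windows held no core. The windows of Cd68 and Gpnmb held none, which says only that these letters are not in those windows. Windows were found for 32 of the 37 genes. The core was present in 9 of these 32 genes (28.1%), namely Ctsa, Ctsd, Ctsl, Gaa, Gla, Glb1, Lamp1, Lgmn and Mcoln1, and in 2187 of all 27025 genes (8.09%), where a gene counts if any of its windows holds the core. By window, 9 of 37 (24.3%) held it, against 2349 of all 32851 windows (7.15%). The 8 bases GTCACGTG were present in 7 of the 32 genes (21.9%), against 689 of all genes (2.55%). A match describes the letters of a window and is not a measured binding site.

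Signals are MAS5 intensities on a linear scale that the authors had set to the same trimmed mean on every array. The 40th percentile of the probe sets lay between 18.7 and 28.6 on these arrays, so signals near or under that range are low. A change is a difference of log2(signal + 16), which understates the change of genes with low signals. The call of a gene is a limma p under 0.05 after adjustment over all 35069 probe sets tested. Gli1, the standard transcript of active Hedgehog signalling, had signals of 20.4 ± 24.1 at 24 h and 12.3 ± 7.37 at 48 h, and in resistant tumours of 633 ± 60.9 at 160 mg/kg and 1165 ± 172 at 40 mg/kg, against 679 ± 42.2 in vehicle tumours (SD, n = 3 each).

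No lysosome gene was called in the first hours after dosing, while Gli1 was called lower at 4 h and at 8 h. Its log2 changes against the 4 h vehicle were -2.42 ± 0.35 and -4.62 ± 0.35 (limma adjusted p = 0.00112 and 1.71e-08). The control for these hours has only 2 arrays, whose title numbers fall in different runs of consecutive numbers. Replicate 2 shares the run of the 4 h and 8 h drug arrays and replicate 1 does not. Of these 2 arrays, replicate 1 was the higher in 28 of the 37 genes. At 4 h, 0 of the 37 genes were called against the 4 h vehicle, where 0.347% of all 14980 genes were called, and the median change was 0.08. Without adjustment 3 genes had limma p-values under 0.05, as did 7.3% of all genes. At 8 h, 0 of 37 were called, where 2.12% of all genes were called higher, and the median change was 0.25, with 34 of the 37 above 0. Over all genes the median change was 0.04. Without adjustment 6 of the 37 had limma p-values under 0.05, each higher at 8 h. Among all genes 16.9% had such p-values in either direction. The count is near that share, which unlike the count takes in both directions. The lowest adjusted p was that of Neu1, a sialidase that trims sialic acid from glycoproteins, with signals of 80.3, 105 and 81.9 at 8 h, against 54.3 and 38.6 in the 4 h vehicle. These arrays did not overlap, but the change, log2 change 0.76 ± 0.24, adjusted p = 0.0865, missed the threshold. A second probe set of Npc2, a cholesterol carrier, and one of Tpp1, a peptidase, were called at 8 h, with log2 changes of 0.60 and 0.73 (adjusted p = 0.0165 and 0.0102), where 1.45% of all probe sets were called higher. Both genes' main probe sets were not called, with changes of 0.37 and 0.32. Between 8 h and 4 h, 0 of 37 genes were called, where 0.728% of all genes were. Here 3 had unadjusted limma p-values under 0.05, each higher at 8 h, as did 10.4% of all genes in either direction. Macrophage markers were likewise not called at 4 h or 8 h (0 of 23 each).

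At 24 h, 26 of the 37 genes were higher than in vehicle tumours and 0 were lower, with a median log2 change of 0.67. Over all genes, 19.7% were called higher and the median change was 0.10. By probe set the calls were fewer, 42 of 76 (55.3%), against 70.3% by gene. The called genes with an uncalled probe set were Ctsa, Ctsc, Gm2a, Gpnmb, Gusb, Lamp2, Man2b1, Mcoln1, Neu1, Npc2, Ppt1, Psap and Smpd1. In 29 of the 37 genes the groups did not overlap, where 28.6% of all genes had every 24 h array above every vehicle array. By role, the calls took in 7 of 11 proteases, 5 of 8 glycosidases, 6 of 8 lipid-handling genes, 5 of 6 membrane proteins and 3 of 4 of the remaining genes. Cd68, a heavily glycosylated membrane protein of macrophage lysosomes, had signals of 474, 335 and 431 at 24 h, against 103, 141 and 140.2 in vehicle tumours. All 3 treated arrays lay above the vehicle arrays, and the change was the largest at this time, log2 change 1.57 ± 0.26, adjusted p = 4.22e-05. Ctsb, cathepsin B, a cysteine protease, had 4947, 4187 and 4237 at 24 h, against 1339, 1471 and 1733 in vehicle tumours (log2 change 1.55 ± 0.21, adjusted p = 4.53e-06). Lipa, the acid lipase that frees cholesterol from its esters, had 456, 325 and 345 at 24 h, against 125, 138 and 154 in vehicle tumours (log2 change 1.33 ± 0.27, adjusted p = 0.000508). Atp6v0d2, a V-ATPase subunit typical of osteoclasts and macrophages, had 64.6, 94.6 and 53.7 at 24 h, against low signals of 22.4, 14.3 and 16.9 in vehicle tumours. Neither Lipa nor Atp6v0d2 overlapped between the groups, and Atp6v0d2 changed by log2 change 1.34 ± 0.26, adjusted p = 0.000286. Ctsk, cathepsin K, the collagen-degrading protease of osteoclasts, had 221, 126 and 72.5 at 24 h, against 2.7, 106 and 55.3 in vehicle tumours. Its groups overlapped, and its call (log2 change 1.40 ± 0.49, adjusted p = 0.0325) was lost without 24 h replicate 1 (adjusted p = 0.171), 24 h replicate 2 (0.0709) or vehicle replicate 1 (0.307).

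The other rises at 24 h were moderate. Lamp1, a main glycoprotein of the lysosomal membrane, had 2084, 1771 and 1794 at 24 h, against 1294, 1488 and 1367 in vehicle tumours. The groups did not overlap, and the change was log2 change 0.44 ± 0.15, adjusted p = 0.0281, a call lost without 24 h replicate 1 (adjusted p = 0.122), vehicle replicate 1 (0.0962) or vehicle replicate 3 (0.068). Lamp2, its relative that also serves autophagy, had 1666, 1422 and 1761 at 24 h, against 1113, 1128 and 1223 in vehicle tumours, again with no overlap (log2 change 0.48 ± 0.13, adjusted p = 0.00664). Ctsd, cathepsin D, an aspartic protease, had 1680.1, 1068 and 1358 at 24 h, against 766, 690.3 and 703 in vehicle tumours. Psap, whose product is cut into the saposins that present sphingolipids to their hydrolases, had 2711, 1917 and 2317 at 24 h, against 1218, 1273 and 1174 in vehicle tumours. Both genes were above every vehicle array by their main probe sets, with changes of 0.89 and 0.90. The second probe set of Psap was not called. The 11 genes not called at 24 h were Asah1, Tfeb, Gla, Scarb2, Npc1, Glb1, Ctsl, Ctsz, Ctss, Manba and Ctsh, with changes between -0.04 and 0.69. Gpnmb had 23.7, 41.9 and 47.9 at 24 h, against 4.5, 9.1 and 24.4 in vehicle tumours. It was 1 of the 2 called genes whose groups overlapped, where 28.6% of all genes had every 24 h array above every vehicle array. It was called with log2 change 0.94 ± 0.31, adjusted p = 0.0259. That call was lost without 24 h replicate 2 (adjusted p = 0.0806) or 3 (0.103), or vehicle replicate 1 (0.132) or 2 (0.0779).

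Other measures moved at 24 h as well. Of 23 macrophage and microglia markers, 12 were called higher (median 0.76), with summed signals of 5722 to 8990.0 at 24 h, against 2512 to 4069 in vehicle tumours. Neuronal markers were called higher in 8 of 9 (median 2.11), summing to 8401 to 9075 at 24 h, against 2859.5 to 3000.1 in vehicle tumours. Fibroblast and matrix markers were called higher in 8 and lower in 1 of 12 (median 1.58), summing to 19312 to 25919 at 24 h, against 4098 to 9788 in vehicle tumours. Endothelial markers were called higher in 5 of 11 and osteoclast markers in 2 of 5. The sums of these 5 lists did not overlap between the groups. Astrocyte and glia markers went down, summing to 608 to 708 at 24 h, against 1231 to 1605 in vehicle tumours. Granule progenitor and medulloblastoma markers summed to 19282 to 22476 at 24 h, against 16529 to 18104 in vehicle tumours. Gli1, which is on that list, went the other way, with a log2 change of -4.46. Neither of these lists overlapped. Skeletal muscle markers were called higher in 12 of 14 (median 3.07), summing to 12596 to 17652 at 24 h, against 1027 to 13437 in vehicle tumours, which overlapped. Actin signal at the 3′ end over that at the 5′ end, a log2 ratio that measures RNA integrity, was 1.41 to 1.83 at 24 h, against 1.00 to 1.08 in vehicle tumours, with no overlap. The title number of 24 h replicate 1 falls in another run of numbers than the remaining 24 h and vehicle arrays, and without it 21 genes were called, or 19 with the run as a block. The part of these measures in the rise of the lysosome genes was not tested.

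**Figure D1:**
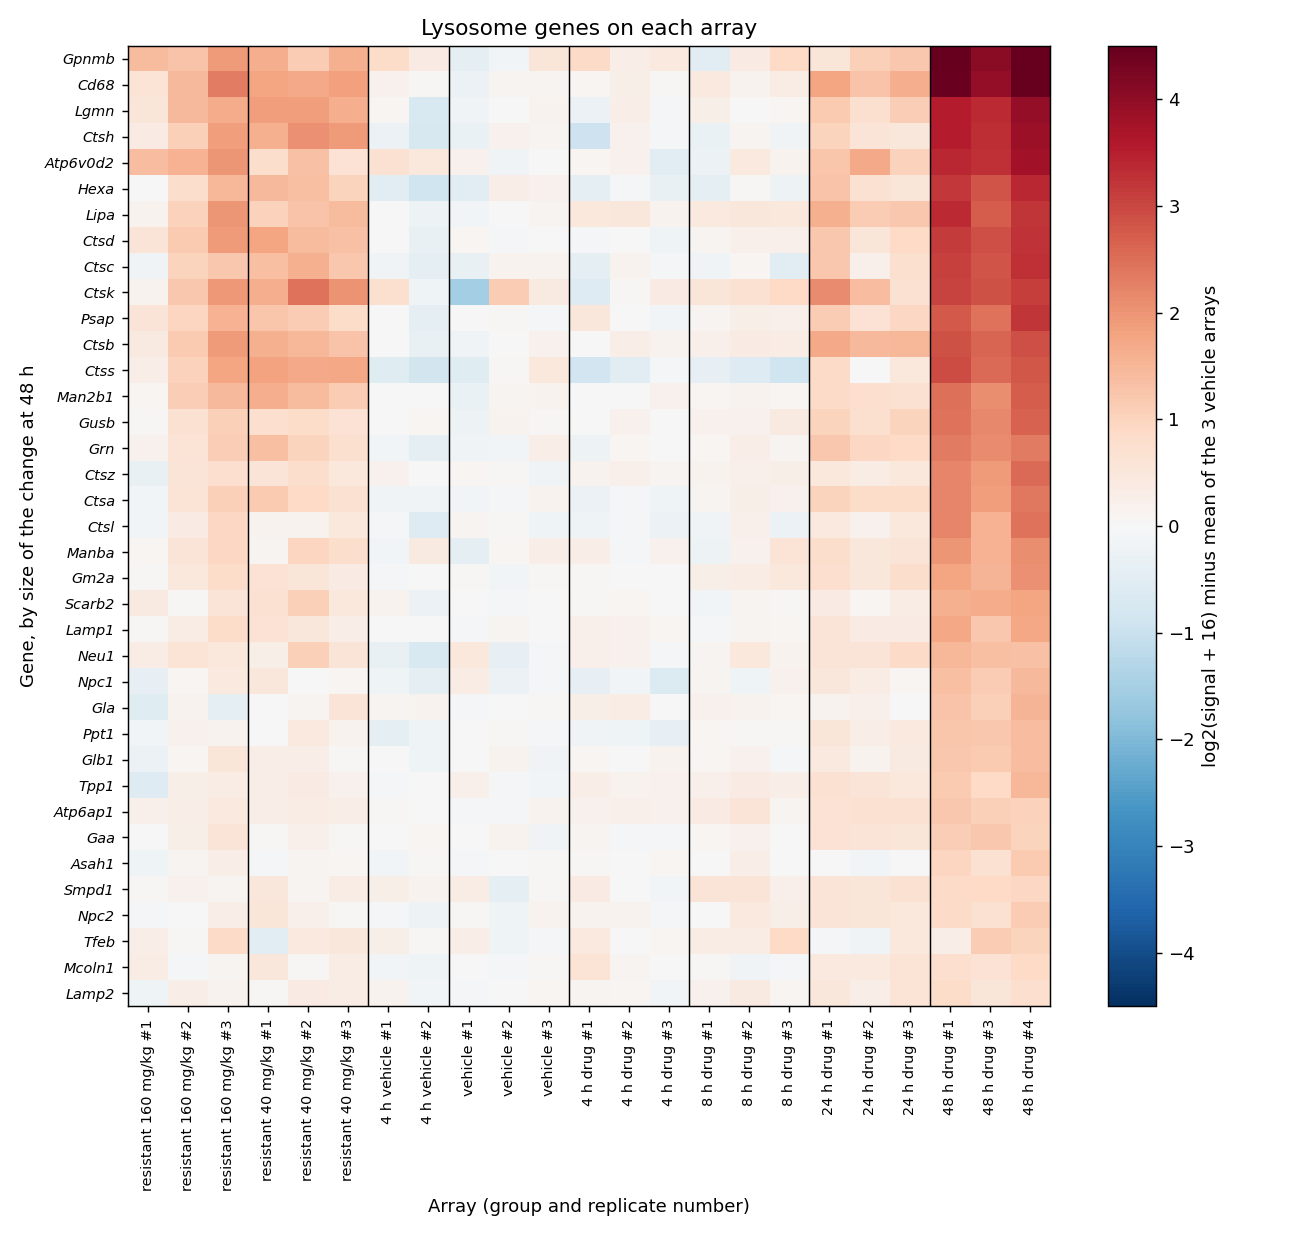
Each cell is 1 gene (rows, ordered by the change at 48 h) on 1 array (columns, by group and replicate number), and colour is log2(signal + 16) minus the mean of the 3 vehicle arrays. The 48 h columns are red for nearly every gene, the 24 h and resistant columns are paler, and the 4 h and 8 h columns are close to the vehicle columns.

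At 48 h all 37 genes were higher than in vehicle tumours and 0 were lower. The median log2 change was 2.07, or 4.20-fold on the scale of signal plus 16, and the changes ran from 0.70 for Lamp2 to 4.41 for Gpnmb. Over all genes, 25.1% were called higher and 21.3% lower, with a median change of 0.06. Changes exceeded 3 in 10 genes, 2 in 19 and 1 in 31. Of the 76 probe sets tested, 66 were called higher and 0 lower, where 20.6% of all probe sets were called higher. The other 10 belonged to 7 genes whose main probe set was called, and had mean signals of 1.97 to 82.7. In bulk tumour RNA, more cells of a type and more RNA per cell cannot be told apart.

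The 11 proteases had the highest median of the roles, 2.79, and 11 of 11 were called. Lgmn, legumain, which cuts after asparagine and activates cathepsins, had signals of 3292, 2856 and 4377 at 48 h, against 237, 268 and 298 in vehicle tumours. Ctsh, cathepsin H, an aminopeptidase, had 1185, 1010.3 and 1471 at 48 h, against 67.0, 101 and 94.7 in vehicle tumours. The lowest 48 h array was several times the highest vehicle array for both, with changes of log2 change 3.62 ± 0.23, adjusted p = 1.13e-11 for Lgmn and log2 change 3.58 ± 0.29, adjusted p = 7.62e-10 for Ctsh. Ctsd had 6471, 5415 and 7024 at 48 h, against 766, 690.3 and 703 in vehicle tumours (log2 change 3.10 ± 0.21, adjusted p = 4.89e-11). Ctsc, cathepsin C, which activates the serine proteases of immune cells, had 4828, 4109 and 5661 at 48 h, against 445, 628 and 627 in vehicle tumours (log2 change 3.07 ± 0.27, adjusted p = 2.18e-09). Their groups stood well apart. Ctsk had 432, 385 and 454 at 48 h, against 2.7, 106 and 55.3 in vehicle tumours, where replicate 1 was far below the others (log2 change 3.01 ± 0.49, adjusted p = 2.09e-05). Ctsb had 11113, 9349.5 and 11243 at 48 h, against 1339, 1471 and 1733 in vehicle tumours (log2 change 2.79 ± 0.21, adjusted p = 2.54e-10). Ctss, cathepsin S, which trims the invariant chain in antigen-presenting cells, had 3198, 2388 and 2889 at 48 h, against 267, 419.8 and 567 in vehicle tumours (log2 change 2.76 ± 0.28, adjusted p = 2.94e-08). In all 3 genes every 48 h array was above every vehicle array.

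The remaining proteases rose less. Ctsl, cathepsin L, an endopeptidase, had 3699, 2380.1 and 4430.0 at 48 h, against 874, 824 and 702 in vehicle tumours (log2 change 2.07 ± 0.21, adjusted p = 3.42e-08). Ctsz, cathepsin Z, a carboxypeptidase, had 5729, 4753 and 7239.6 at 48 h, against 1323, 1289 and 1103 in vehicle tumours, a change of 2.22. Ctsa, the protective protein of the sialidase and beta-galactosidase, had 1985, 1615 and 2249.8 at 48 h, against 389.5, 409 and 473 in vehicle tumours, a change of 2.15. Its second probe set, with a mean of 34.3 at 48 h and 38.7 in vehicle, was not called. Tpp1, the peptidase missing in one form of Batten disease, had the smallest rise of the proteases, log2 change 1.19 ± 0.17, adjusted p = 4.41e-06. No protease overlapped between the groups.

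All 8 glycosidases were called at 48 h, with a median change of 1.63. Hexa, the alpha subunit of beta-hexosaminidase, which is lost in Tay-Sachs disease, had signals of 2842, 2229.9 and 3287 at 48 h, against 207, 373 and 339.6 in vehicle tumours. It rose most in this class, log2 change 3.14 ± 0.27, adjusted p = 1.73e-09. Man2b1, lysosomal alpha-mannosidase, had 1200.3, 915 and 1419 at 48 h, against 163, 224 and 228 in vehicle tumours, and Gusb, beta-glucuronidase, followed it closely with changes of 2.42 for Man2b1 and 2.42 for Gusb. Gusb signals were 1192, 986 and 1382 at 48 h, against 175, 234 and 217 in vehicle tumours. Gla, alpha-galactosidase A, the enzyme of Fabry disease, had 214, 184 and 254 at 48 h, against 75.4, 77.0 and 81.2 in vehicle tumours. Neu1 had 233, 209 and 205 at 48 h, against 108, 51.6 and 66.1 in vehicle tumours. Neither overlapped between groups, yet each had 2 further probe sets that were not called, with changes of 0.67 and -0.59 for Gla and 0.73 and -0.68 for Neu1. With the mean of a gene's probe sets in place of the main one, the calls of Gla (adjusted p = 0.0538) and Neu1 (0.161) were lost. Manba, Glb1 and Gaa, which cut mannose, galactose and glycogen, rose by 1.88, 1.25 and 1.11.

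The 8 lipid-handling genes were all called, with the lowest median of the roles, 1.30. Lipa and Psap stood above the others. Lipa had signals of 1562, 999 and 1436 at 48 h, against 125, 138 and 154 in vehicle tumours (log2 change 3.10 ± 0.27, adjusted p = 1.85e-09), and its other 2 probe sets rose by 3.62 and 2.60. Psap had 8447, 6766 and 11347 at 48 h, against 1218, 1273 and 1174 in vehicle tumours (log2 change 2.81 ± 0.20, adjusted p = 1.21e-10). Gm2a, the activator that lifts the ganglioside GM2 to hexosaminidase, had 647, 536 and 777 at 48 h, against 185, 163 and 183 in vehicle tumours, a change of 1.78. These 3 genes showed no overlap. Ppt1, a thioesterase that removes fatty acids from proteins, had 417, 409.7 and 467 at 48 h, against 171, 174 and 160.3 in vehicle tumours. Smpd1, acid sphingomyelinase, had 239, 247 and 255 at 48 h, against 164, 90.2 and 130.4 in vehicle tumours. Npc2, which hands cholesterol to Npc1 for export, had 3649.6, 3204 and 4470.3 at 48 h, against 2057, 1752 and 2231 in vehicle tumours. The changes were 1.28 for Ppt1, 0.90 for Smpd1 and 0.89 for Npc2, and each of these genes had 1 or 2 dim probe sets that were not called. Npc1, the membrane transporter of that pair, rose by 1.32, and Asah1, acid ceramidase, by 0.95.

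All 6 membrane proteins were called, and they spanned the whole range of the list. Gpnmb, a glycoprotein of macrophages and melanocytes, had signals of 605, 439 and 687 at 48 h, against 4.5, 9.1 and 24.4 in vehicle tumours, where 2 arrays were under the 40th percentile range given above. The change was log2 change 4.41 ± 0.31, adjusted p = 8.33e-11. Cd68 had 3119.5, 2201 and 3895 at 48 h, against 103, 141 and 140.2 in vehicle tumours (log2 change 4.40 ± 0.26, adjusted p = 3.64e-12), so its lowest treated array stood far above its highest vehicle array. These were the largest rises of the 37. Lamp1 had 4612, 3216 and 4609 at 48 h, against 1294, 1488 and 1367 in vehicle tumours (log2 change 1.56 ± 0.15, adjusted p = 9.35e-09). Lamp2 had 2063, 1679 and 1944 at 48 h, against 1113, 1128 and 1223 in vehicle tumours, with no overlap but the smallest change of the list, log2 change 0.70 ± 0.13, adjusted p = 9.42e-05. Mcoln1, the calcium channel that signals to TFEB, had 269, 249.5 and 299.9 at 48 h, against 152, 146 and 159 in vehicle tumours, a change of 0.78 with no overlap. Scarb2, the receptor that carries glucocerebrosidase to lysosomes, rose by 1.68.

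Atp6v0d2 led the remaining 4 genes, with signals of 334, 315 and 452 at 48 h, against 22.4, 14.3 and 16.9 in vehicle tumours (log2 change 3.49 ± 0.26, adjusted p = 1.39e-10). Grn, progranulin, a secreted and lysosomal growth factor, rose by 2.26, and Atp6ap1, an accessory subunit of the pump, by 1.11. Tfeb itself had 60.4, 124 and 111 at 48 h, against 61.8, 38.5 and 42.4 in vehicle tumours. Its groups overlapped, as those of the other 36 genes did not (over all genes 30.4% had every 48 h array above every vehicle array). Its call, log2 change 0.82 ± 0.29, adjusted p = 0.026, was lost without 48 h replicate 3 (adjusted p = 0.123) or 4 (0.0966), or vehicle replicate 2 (0.0946) or 3 (0.0758).

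**Figure D2:**
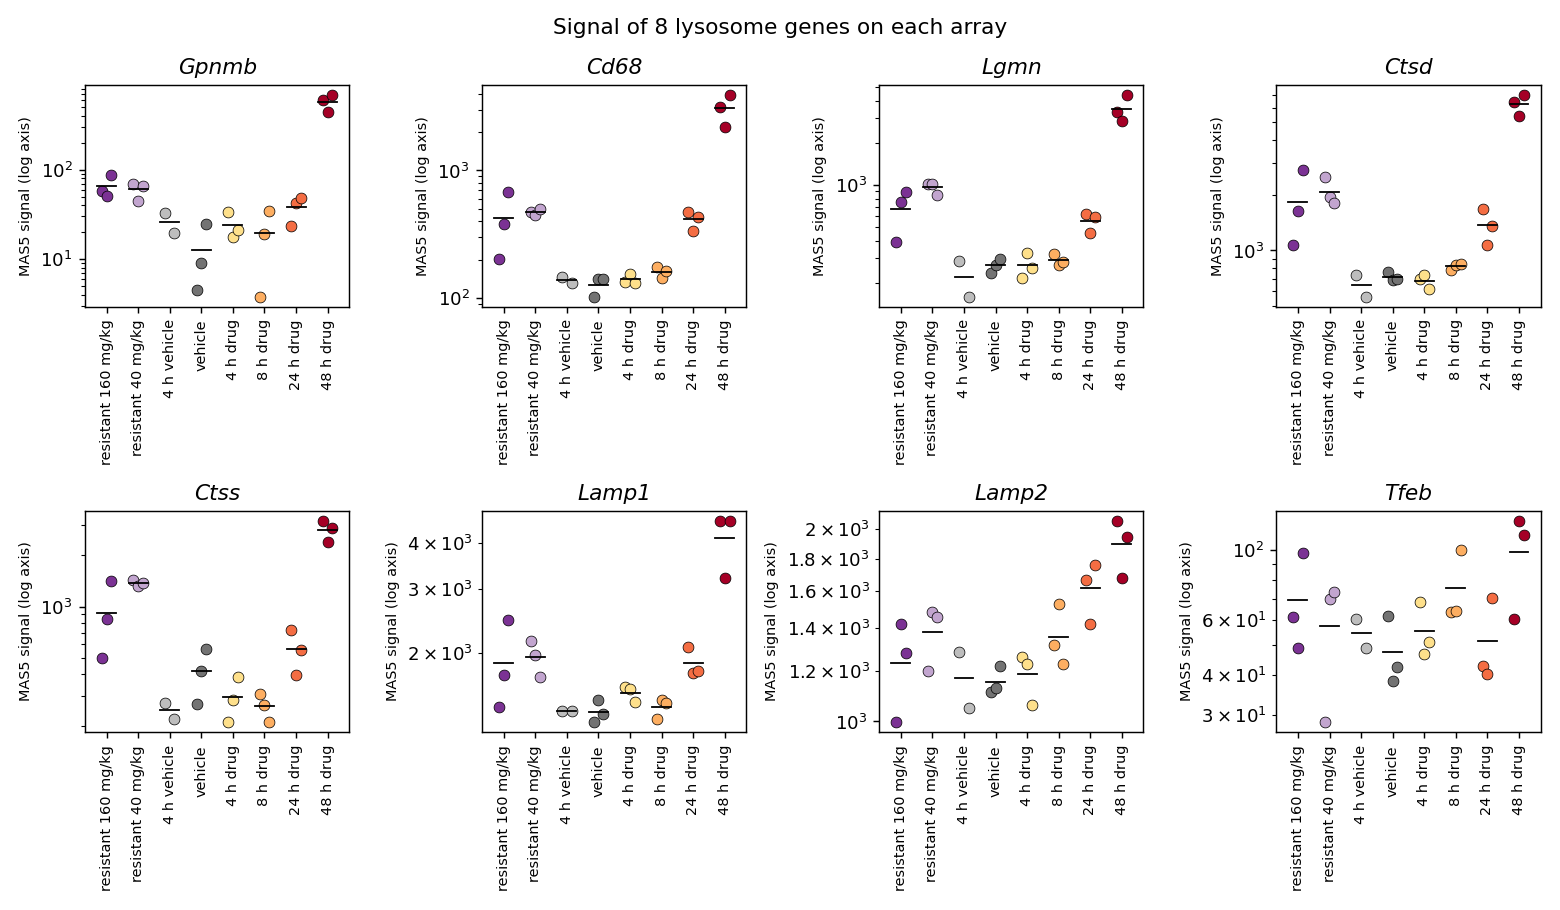
MAS5 signal (log axis) of 8 lysosome genes in each group (x axis), with 1 point per array and a line at the group mean. Cd68 lies between 2201 and 3895 at 48 h, against 103.0 to 141 in vehicle tumours, while the Tfeb points of the groups overlap.

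Between 24 h and 48 h the genes rose further. At 48 h 32 of the 37 genes were higher than at 24 h and 0 were lower (median 1.25), where 11.9% of all genes were called higher. In 35 of the 37 genes the groups did not overlap, where 20.2% of all genes had every 48 h array above every 24 h array. All 11 proteases and all 8 glycosidases passed this test by their main probe set. Of the 76 probe sets, 58 were called higher and 1 lower, where 9.73% of all probe sets were called higher and 10.8% lower. The 1 called lower was a low probe set of Gla, the alpha-galactosidase, with 7.33 ± 5.90 at 48 h, against 29.9 ± 14.1 at 24 h (SD, n = 3 each), while the other 2 of Gla were called higher. Gpnmb had 605, 439 and 687 at 48 h, against 23.7, 41.9 and 47.9 at 24 h, a change of log2 change 3.47 ± 0.31, adjusted p = 5.55e-08. Ctsh had 1185, 1010.3 and 1471 at 48 h, against 190.3, 136 and 129.6 at 24 h (log2 change 2.88 ± 0.29, adjusted p = 2.4e-07). Cd68 had 3119.5, 2201 and 3895 at 48 h, against 474, 335 and 431 at 24 h (log2 change 2.82 ± 0.26, adjusted p = 5.55e-08). No 24 h array reached a 48 h array in these 3 genes, nor in Lgmn or Ctsc, which changed by 2.62 and 2.36. The 5 genes not called were Lamp2, Mcoln1, Smpd1, Npc2 and Tfeb, with changes between 0.23 and 0.75. Macrophage markers were higher at 48 h than at 24 h in 21 of 23 (median 2.42), fibroblast and matrix markers in 7 of 12 (1.23) and neuronal markers in 2 of 9 (0.47). The fibroblast and matrix sums were 35372 to 51093 at 48 h, against 19312 to 25919 at 24 h, and the neuronal sums 11727 to 12859 at 48 h, against 8401 to 9075 at 24 h. Astrocyte and glia sums went down, with 251 to 428 at 48 h, against 608 to 708 at 24 h. The actin ratio was 0.84 to 0.96 at 48 h, against 1.41 to 1.83 at 24 h, also with no overlap. The part of these measures in the difference was not tested.

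Many other genes of the lysosomal system were also higher at 48 h. Among 96 further genes of this system that were tested, 65 were higher at 48 h and 1 was lower, with a median of 0.65. Over all genes 25.1% were called higher and 21.3% lower. Other hydrolases were higher in 17 of 18 (median 0.99), V-ATPase subunits in 15 of 17 (0.68) and other lysosomal membrane proteins in 11 of 15 (0.88). Genes of autophagy were higher in 10 of 18 (0.48), and genes of the TFEB family and nutrient sensing in 7 of 15 (0.45). Within that last group Tfec, Mitf and Tfe3, which are the relatives of Tfeb, rose by 2.24, 1.44 and 0.88, while Mtor, the kinase that restrains TFEB, changed by -0.05 and was not called. Sorting genes were higher in 5 and lower in 1 of 13 (0.29), the list nearest to the share of all genes called higher. Laptm5, a lysosomal membrane protein of blood cells, had 2781, 2246 and 2699 at 48 h, against 112, 167 and 183 in vehicle tumours (log2 change 3.95 ± 0.25, adjusted p = 1.37e-11). Slc11a1, a metal transporter of macrophage lysosomes, had 688, 387 and 618 at 48 h, against 62.0, 73.8 and 38.9 in vehicle tumours (log2 change 2.96 ± 0.26, adjusted p = 2.46e-09). Both had no overlap and were the largest rises of these lists. Igf2r, the mannose 6-phosphate receptor that delivers the enzymes, was the only call in the other direction, with 456, 435 and 502 at 48 h, against 979, 749 and 903 in vehicle tumours (log2 change -0.89 ± 0.15, adjusted p = 4.27e-05).

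Markers of macrophages and of several other cell types were also higher at 48 h, in lists chosen with earlier results of these data known. All 23 macrophage and microglia markers tested were higher at 48 h, with a median of 3.50, and their summed signal was 38290 to 50719 at 48 h, against 2512 to 4069 in vehicle tumours. The lysosome genes summed to 70745 to 98048 at 48 h, against 17121 to 18645 in vehicle tumours. Csf1r, the receptor for macrophage growth factor, had 5817, 4465 and 5803 at 48 h, against 282, 556 and 601 in vehicle tumours (log2 change 3.50 ± 0.36, adjusted p = 3.03e-08). Adgre1, which encodes the macrophage antigen F4/80, had 719.6, 609 and 830.2 at 48 h, against 89.6, 156 and 103 in vehicle tumours, a change of 2.50. Aif1, an actin-binding protein of microglia, rose by 3.68, and C1qa, a complement chain made by macrophages, by 3.76. No marker was listed at 0 on any array, and in vehicle tumours Itgam and Cd163 were at or under the 40th percentile on all 3 arrays. Fibroblast and matrix markers were higher in 11 of 12 (2.71), neuronal markers in 8 of 9 (2.89) and endothelial markers in 10 of 11 (1.40). Neutrophil markers were higher in 5 of 7 (1.84), lymphocyte and natural killer markers in 4 of 8 (0.79) and osteoclast markers in 3 of 5 (0.90). The sums of these 6 lists did not overlap with vehicle. The neutrophil, lymphocyte and osteoclast sums take in 9, 10 and 7 markers, including those not tested. Of these, 3 to 4, 4 to 7 and 3 to 4 were at or under the 40th percentile on the 48 h arrays. The sum of the astrocyte and glia markers was lower, 251 to 428 at 48 h, against 1231 to 1605 in vehicle tumours, with no overlap. Of its 6 markers, 1 to 3 were at or under the 40th percentile on the 48 h arrays. Granule progenitor and medulloblastoma markers summed to 17491 to 20116 at 48 h, against 16529 to 18104 in vehicle tumours, with overlap. Muscle markers were higher in 1 of 14 (1.59). The actin ratio was 0.84 to 0.96 at 48 h, against 1.00 to 1.08 in vehicle tumours, with no overlap. The part of these cell types and of the actin ratio in the rise of the lysosome genes was not tested.

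**Figure D3:**
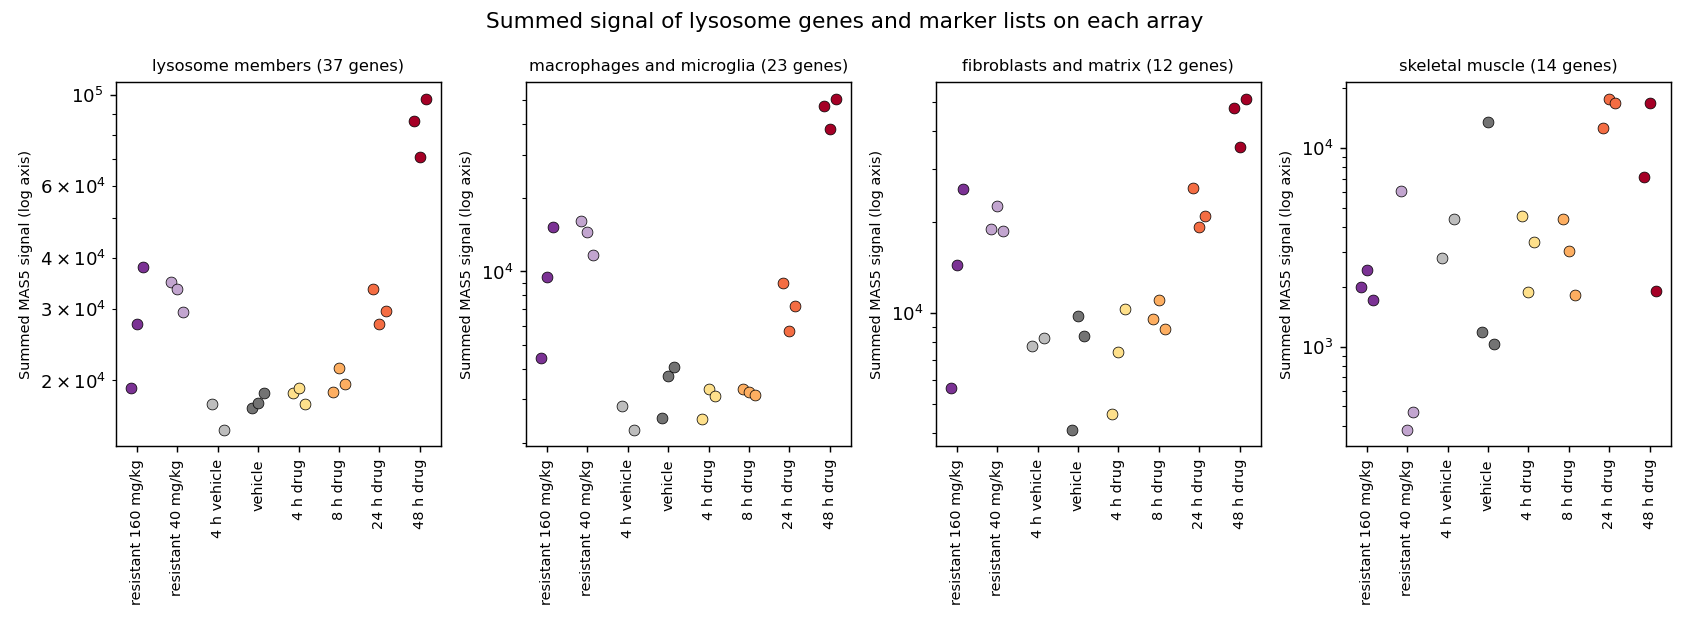
Summed MAS5 signal (log axis) of the 37 lysosome genes and of 3 marker lists on each array, by group. The 48 h arrays are highest for the lysosome genes (70745 to 98048) and for the macrophage markers (38290 to 50719), while muscle markers vary by more within the vehicle group than the lysosome genes do.

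Resistant tumours were set against vehicle tumours to ask which genes differ in tumours that grow under the drug. Over both doses, 21 of the 37 genes were higher than in vehicle tumours and 0 were lower, with a median change of 0.56, where 4.15% of all genes were called higher. By probe set 33 of 76 (43.4%) were called higher, against 56.8% by gene. The called genes with an uncalled probe set were Ctsa, Ctsb, Ctsc, Gm2a, Gpnmb, Gusb and Man2b1. In 12 of the 37 genes the groups did not overlap, where 3.89% of all genes had every resistant array above every vehicle array. The calls were 8 of 11 proteases (median 1.31), 4 of 6 membrane proteins (0.50), 3 of 8 glycosidases (0.57), 3 of 8 lipid-handling genes (0.20) and 3 of the other 4 genes. Cd68 had 204, 381 and 681 at 160 mg/kg and 473, 448 and 499 at 40 mg/kg, against 103, 141 and 140.2 in vehicle tumours. All 6 resistant arrays were above the vehicle arrays, a change of log2 change 1.62 ± 0.22, adjusted p = 0.000134. Lgmn had 396, 760.1 and 885 at 160 mg/kg and 1024, 1017 and 854 at 40 mg/kg, against 237, 268 and 298 in vehicle tumours (log2 change 1.51 ± 0.20, adjusted p = 9.72e-05). Gpnmb had 57.8, 50.8 and 88.4 at 160 mg/kg and 69.3, 44.7 and 66.6 at 40 mg/kg, against 4.5, 9.1 and 24.4 in vehicle tumours (log2 change 1.499 ± 0.27, adjusted p = 0.00192). Neither overlapped with vehicle. Ctsh had 117, 201 and 364 at 160 mg/kg and 293, 413 and 372 at 40 mg/kg, against 67.0, 101 and 94.7 in vehicle tumours (log2 change 1.49 ± 0.25, adjusted p = 0.00113). Ctsd had 1072, 1651 and 2760.2 at 160 mg/kg and 2501, 1946 and 1823 at 40 mg/kg, against 766, 690.3 and 703 in vehicle tumours (log2 change 1.36 ± 0.18, adjusted p = 0.000128). The vehicle arrays of Ctsh and Ctsd were below every resistant array.

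Ctss had 501, 843 and 1424 at 160 mg/kg and 1428, 1328 and 1387 at 40 mg/kg, against 267, 419.8 and 567 in vehicle tumours (log2 change 1.40 ± 0.25, adjusted p = 0.00146). Only replicate 1 at 160 mg/kg fell within the vehicle range. Ctsb had 2007, 3396 and 5757 at 160 mg/kg and 4606, 4255 and 3671 at 40 mg/kg, against 1339, 1471 and 1733 in vehicle tumours (log2 change 1.31 ± 0.18, adjusted p = 0.000183). Lipa had 156, 299.8 and 597 at 160 mg/kg and 305, 359 and 396 at 40 mg/kg, against 125, 138 and 154 in vehicle tumours (log2 change 1.15 ± 0.23, adjusted p = 0.00448). Atp6v0d2 had 72.1, 83.9 and 117 at 160 mg/kg and 43, 69.0 and 36.5 at 40 mg/kg, against 22.4, 14.3 and 16.9 in vehicle tumours (log2 change 1.29 ± 0.22, adjusted p = 0.00126). These last 3 genes did not overlap with vehicle. Ctsk had 45.5, 109.6 and 195 at 160 mg/kg and 153, 279 and 206 at 40 mg/kg, against 2.7, 106 and 55.3 in vehicle tumours, overlapping groups whose call (log2 change 1.57 ± 0.42, adjusted p = 0.0306) was lost without 160 mg/kg replicate 3 (adjusted p = 0.0756), 40 mg/kg replicate 2 (0.0568) or vehicle replicate 1 (0.326) or 3 (0.0566). Lamp1 had 1430.1, 1746 and 2474 at 160 mg/kg and 2159, 1974 and 1720.0 at 40 mg/kg, against 1294, 1488 and 1367 in vehicle tumours, with overlap and a change of log2 change 0.45 ± 0.13, adjusted p = 0.0446. That call was lost on leaving out any of 6 arrays, namely 160 mg/kg replicate 3, 40 mg/kg replicates 1 and 2 and each vehicle replicate (adjusted p from 0.0655 to 0.199). Tfeb changed by log2 change 0.28 ± 0.25, adjusted p = 0.618. The calls that held under every alternative and without each array in turn numbered 7 of 21, namely Cd68, Ctsb, Ctsd, Ctsh, Ctss, Lgmn and Psap. With only the compared arrays in the fit, 9 of the 37 genes were called. Macrophage markers were higher in 17 of 23 (median 1.49), with sums of 4418 to 15179 at 160 mg/kg and 11721 to 16142 at 40 mg/kg, against 2512 to 4069 in vehicle tumours. Fibroblast and matrix markers were higher in 4 of 12 (1.05), with sums of 5646 to 25772.5 at 160 mg/kg and 18593 to 22540.4 at 40 mg/kg, against 4098 to 9788 in vehicle tumours. Of the other lists, none had over 1 marker called higher. Astrocyte and glia sums were 959 to 2621 at 160 mg/kg and 233 to 912.5 at 40 mg/kg, against 1231 to 1605 in vehicle tumours. The part of these markers in the result was not tested.

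**Figure D4:**
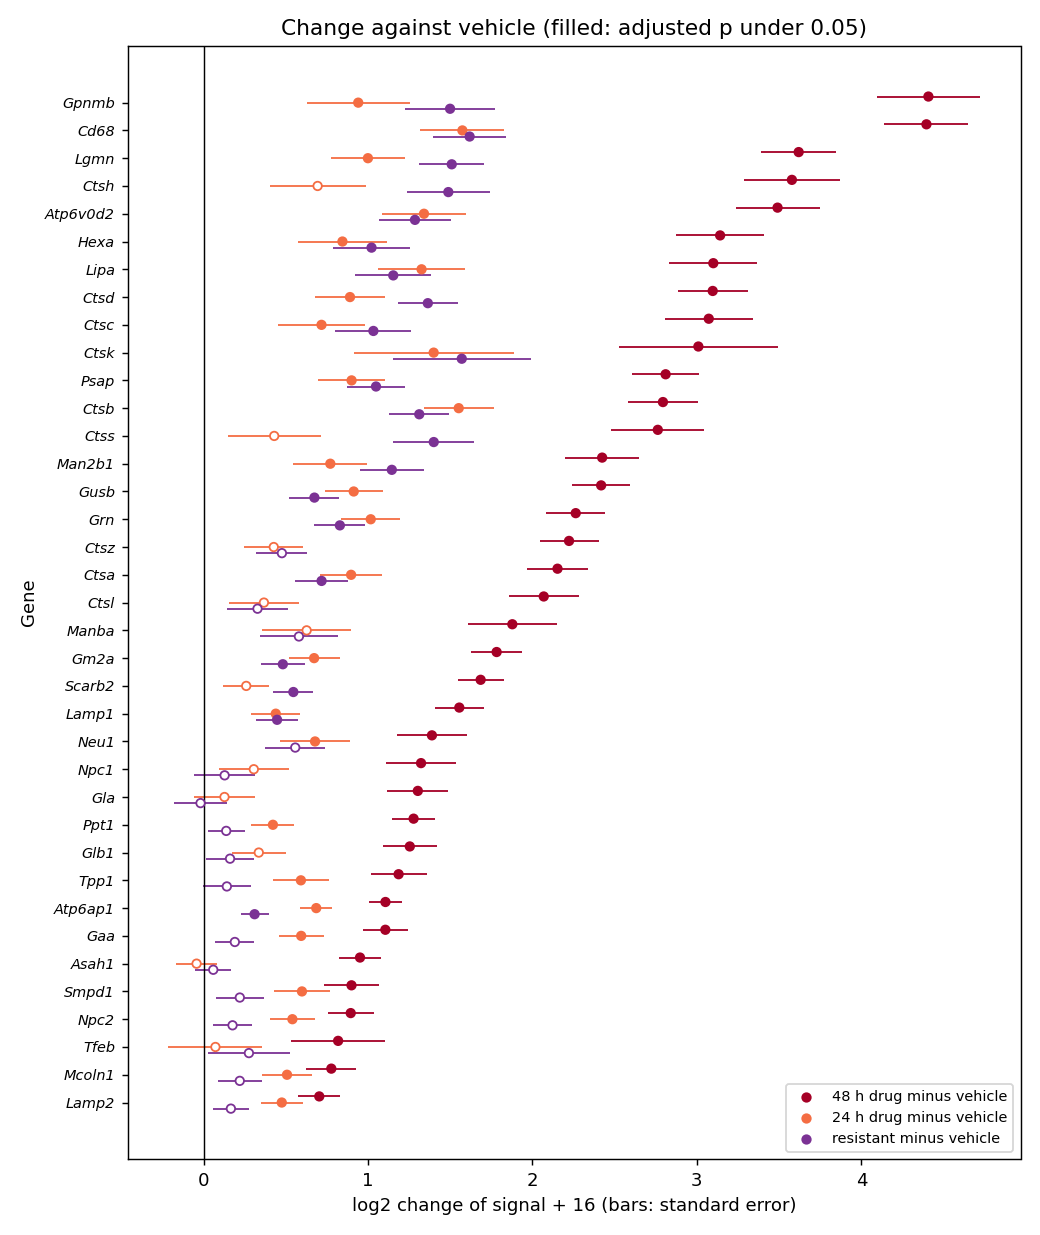
Log2 change of signal plus 16 against vehicle (x axis, bars are standard errors) for each of the 37 genes (rows), at 48 h, at 24 h and in resistant tumours, with filled points called at adjusted p under 0.05. The 48 h point lies to the right of the other 2 for every gene, and all 3 comparisons share the vehicle arrays.

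Resistant tumours at 40 mg/kg lay below sensitive tumours 48 h after the same dose. Of the 37 genes, 35 were lower in resistant tumours and 0 were higher, with a median of -1.11, where 19.2% of all genes were called lower. In 36 of the 37 genes the groups did not overlap, where 24.2% of all genes had every resistant array below every 48 h array. Gpnmb had 69.3, 44.7 and 66.6 in resistant tumours, against 605, 439 and 687 at 48 h (log2 change -2.95 ± 0.31, adjusted p = 1.18e-07). Cd68 had 473, 448 and 499 in resistant tumours, against 3119.5, 2201 and 3895 at 48 h (log2 change -2.62 ± 0.26, adjusted p = 3.21e-08), and Atp6v0d2 had 43, 69.0 and 36.5 in resistant tumours, against 334, 315 and 452 at 48 h (log2 change -2.56 ± 0.26, adjusted p = 4.58e-08). In all 3 genes every resistant array was far below the lowest 48 h array. Hexa had 853, 785 and 613 in resistant tumours, against 2842, 2229.9 and 3287 at 48 h (log2 change -1.87 ± 0.27, adjusted p = 8.83e-06). Ctsl had 885, 888 and 1125 in resistant tumours, against 3699, 2380.1 and 4430.0 at 48 h (log2 change -1.80 ± 0.21, adjusted p = 5.85e-07), and Psap had 2889, 2726 and 2189.5 in resistant tumours, against 8447, 6766 and 11347 at 48 h (log2 change -1.74 ± 0.20, adjusted p = 5.02e-07). No resistant array reached the 48 h arrays in these genes. Lipa, Lgmn, Ctsh and Ctsc fell by 1.85, 1.83, 1.72 and 1.70 on the log2 scale. The 2 genes not called were Ctsk (-0.98, adjusted p = 0.14) and Tfeb (-0.67, adjusted p = 0.0851). Macrophage markers were lower in 22 of 23 (median -1.60), neuronal markers in 8 of 9 (-2.74) and fibroblast and matrix markers in 7 of 12 (-1.23). The neuronal sums were 2558 to 4096 in resistant tumours, against 11727 to 12859 at 48 h, and the fibroblast and matrix sums 18593 to 22540.4 in resistant tumours, against 35372 to 51093 at 48 h. Endothelial markers were lower in 5 of 11, lymphocyte and natural killer markers in 4 of 8 and muscle markers in 4 of 14. The actin ratio was 0.89 to 1.46 in resistant tumours, against 0.84 to 0.96 at 48 h, and the part of these measures in the result was not tested.

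The 2 resistant doses were compared directly, and 0 of 37 genes were called between 160 and 40 mg/kg, where 2.8% of all genes were, with a median of -0.18. Without adjustment 10 genes had limma p-values under 0.05, 9 of them lower at 160 mg/kg, where 14.5% of all genes had such p-values. The 3 arrays at 160 mg/kg differed widely among themselves, since replicate 1 was the lowest of the 3 in 33 of the 37 genes and replicate 3 the highest in 31. The lysosome genes summed to 19123 to 37999 at 160 mg/kg and to 29464 to 34782 at 40 mg/kg. Macrophage sums varied alike at 160 mg/kg, from 4418 on replicate 1 to 15179 on replicate 3, and so did fibroblast and matrix sums, with 5646, 14431 and 25772.5 on replicates 1, 2 and 3. Without replicate 3, 6 genes were called lower at 160 mg/kg. The share of all genes called in that fit is not given, so this count cannot be set against it. Ctsk showed the largest drop, with 45.5, 109.6 and 195 at 160 mg/kg, against 153, 279 and 206 at 40 mg/kg (log2 change -0.92 ± 0.49, adjusted p = 0.476), and its groups overlapped. Atp6v0d2 went the other way with no overlap, 72.1, 83.9 and 117 at 160 mg/kg, against 43, 69.0 and 36.5 at 40 mg/kg, but was not called either (log2 change 0.72 ± 0.26, adjusted p = 0.192).

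A comparison of resistant tumours with sensitive tumours at 24 h was added after the values were seen. Higher in resistant tumours were 2 genes and lower were 5, where 12.6% of all genes were called higher and 15.2% lower, and the median was -0.05. Ctss had 501, 843 and 1424 at 160 mg/kg and 1428, 1328 and 1387 at 40 mg/kg, against 732, 395 and 556 at 24 h (log2 change 0.97 ± 0.25, adjusted p = 0.00479). Ctsh had 117, 201 and 364 at 160 mg/kg and 293, 413 and 372 at 40 mg/kg, against 190.3, 136 and 129.6 at 24 h (log2 change 0.79 ± 0.25, adjusted p = 0.0233). In both genes the arrays at 40 mg/kg were above all 24 h arrays and replicate 1 at 160 mg/kg was not. Atp6ap1 had 801, 839 and 927 at 160 mg/kg and 848, 871 and 838 at 40 mg/kg, against 1097, 1116 and 1121 at 24 h, with no overlap (log2 change -0.38 ± 0.09, adjusted p = 0.00192). It was the only 1 of the 7 calls that held under every alternative. Gaa, Tpp1, Npc2 and Lamp2 fell by 0.40, 0.45, 0.36 and 0.31 on the log2 scale. Without 24 h replicate 1, 2 or 3, the genes called numbered 4, 3 and 4. Macrophage markers were higher in 9 of 23 and lower in 1, with a median of 0.43, and the actin ratio was 0.89 to 1.46 in resistant tumours, against 1.41 to 1.83 at 24 h. Muscle markers were lower in 14 of 14 (median -3.50), with sums of 381 to 6058 in resistant tumours, against 12596 to 17652 at 24 h. Neuronal markers were lower in 8 of 9 (median -1.58), with sums of 2558 to 4764 in resistant tumours, against 8401 to 9075 at 24 h. The part of these measures was not tested.

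The 2 vehicle groups were compared to see how far the controls differ. Between the 4 h vehicle and the vehicle with no stated time, 0 of 37 genes were called, where 0.2% of all genes were, and the median change was -0.05. Without adjustment 4 genes had limma p-values under 0.05, each lower in the 4 h vehicle, as did 8.75% of all genes in either direction. With the 4 h vehicle as control for the later groups, 36 genes were called higher at 48 h, 24 at 24 h and 17 in resistant tumours.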

How the data were processed

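RNA from flank tumours was measured on Affymetrix mouse arrays, and each of 23 arrays has a value for 45101 probe sets. Per the submitters' processing notes, MAS5 (version not given in the sources used here) made the values, which are deposited as linear signal intensity. Scaling by the authors is seen in the 2% trimmed mean, which was 150 throughout. The number of probe sets is that of the Mouse 430 2.0 layout, although the study's design names the smaller 430A 2.0. Intensities give no counting error, so the number of arrays limits precision. Probe sets were named from the platform annotation: 34945 had 1 symbol, 932 several and 9160 none, and 64 controls were left out.

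Values were analysed as log2(signal + 16). Probe sets above the 40th percentile of an array on 2 or more arrays were tested, 35069 in all, of 14980 genes. One model with 8 group means was fitted with limma 3.58.1 (lmFit, eBayes with trend) in R 4.3.3, with version 1.17.8 of data.table. Two-sided p-values were adjusted by Benjamini-Hochberg across the tested probe sets, within each of 11 comparisons, at 0.05. Errors of log2 changes are standard errors. The resistant comparison weights its 2 doses equally. The 4 h and 8 h comparisons share the 4 h vehicle, and the 24 h, 48 h and resistant comparisons share the other vehicle arrays. The fit was tested on simulated data.

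The members and all lists (roles, other lysosome genes and cell type markers) were chosen with earlier results of these data known. The rule was to give signals on every array for called genes with the largest changes. These were the 10 largest at 48 h, in resistant tumours and between resistant and 48 h tumours, and the 5 largest in other comparisons. Cd68, Lamp1, Ctsd and Tfeb were added, as were genes whose probe sets disagree at 48 h. Some of these genes are given in places by their changes alone, such as Tpp1 and Gaa between resistant and 24 h tumours. Outside the list, Gli1, Csf1r, Adgre1, Aif1 and C1qa are named, with the 2 largest called rises and the only called fall of the other lysosome lists at 48 h. Tfec, Mitf, Tfe3, Mtor, Itgam, Cd163 and the resistant comparison with 24 h were picked with their values known. Probe sets that match several transcripts can share signal between genes. Alternatives were offsets of 1 and 64, no filter, a 60th percentile filter, quantile normalization, a fit of the compared arrays alone, eBayes with no trend, the mean of a gene's probe sets, either the 4 h vehicle or all 5 vehicle arrays as control, a block for the replicate number or for the title number run, and each array left out in turn. Promoter windows are RefSeq's on GRCm38.p6.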

Additional observations from a re-analysis of the deposited data

Results flagged for a closer look

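The effect of the drug against vehicle differed between 48 h and 24 h for 32 of the 37 genes, by the limma contrast of 48 h against 24 h. Each of the 32 was higher at 48 h, where 11.9% of all genes were called higher. Over all genes 20.2% had every 48 h array above every 24 h array. The largest differences on the log2 scale were those of Gpnmb (3.47), Ctsh (2.88), Cd68 (2.82), Lgmn (2.62) and Ctsc (2.36), and in each of these genes all 3 of the 48 h arrays were above all 3 of the 24 h arrays. Of 23 macrophage markers, 21 were also higher at 48 h than at 24 h (median 2.42), as were 7 of 12 fibroblast and matrix markers (1.23) and 2 of 9 neuronal markers (0.47). The log2 ratio of actin signal, 3′ over 5′ end, was 0.84 to 0.96 at 48 h, against 1.41 to 1.83 at 24 h. The part of these measures in the differences was not tested. No group has 4 or more arrays, so single arrays were not screened for outliers.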

How the results depend on the processing

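At 48 h the number of genes called higher stayed between 35 and 37 under every alternative, and 34 of the 37 calls held under all of them; the exceptions were Tfeb, Gla and Neu1. At 24 h the number ran from 19 to 28, and 13 of 26 calls held under all. Among single genes 2597 settings left the direction and call as they were, 183 ended a call and 0 reversed a direction. With only the compared arrays in the fit, 9 genes were called between resistant and vehicle tumours, 2 between 8 h and the 4 h vehicle and 3 between resistant and 24 h tumours. With all 5 vehicle arrays as control, 1 gene was called at 8 h. Between resistant and 24 h tumours, 4 genes were called without the trend and 4 with the title number run as a block. The cause of these shifts was not tested.

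On leaving out 1 array at a time, the genes called ranged from 36 to 37 at 48 h, 20 to 24 at 24 h, 14 to 22 in resistant tumours and 33 to 35 between resistant and 48 h tumours. They ranged from 30 to 33 between 48 h and 24 h, 3 to 9 between resistant and 24 h tumours, 0 to 1 at 8 h and 0 to 6 between the resistant doses. At 4 h, between 8 h and 4 h and between the vehicle groups they stayed at 0. The shares of all genes called in these fits are not given.

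The replicate numbers did not pair the arrays: of 70 pairs with the same number in different groups, 1 had a correlation of deviations over 0.1 (median 0), and 5 of 23 arrays matched their own number best. With the replicate block, 36 genes were called at 48 h, 25 at 24 h, 19 in resistant tumours, 34 between resistant and 48 h tumours, 29 between 48 h and 24 h and 6 between resistant and 24 h tumours. Low signals limit the smallest genes, such as Tfeb and the vehicle values of Gpnmb, Atp6v0d2 and Ctsk.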
